A study of Rattus norvegicus with 12 samples.

Results

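Genes of microglia, complement and antigen presentation were followed in rat motor cortex after a toxin model of Parkinson's disease and after electrical stimulation of the cortex. The genes were taken by Ensembl identifier from a fixed list, and all 10 identifiers were among the 16534 features measured. They are Aif1 (ENSRNOG00000000853), Itgam (ENSRNOG00000019728), Cd68 (ENSRNOG00000037563), C1qa (ENSRNOG00000012807), C1qb (ENSRNOG00000012804), Ptprc (ENSRNOG00000000655), Csf1r (ENSRNOG00000018414), Tyrobp (ENSRNOG00000020845), Cd74 (ENSRNOG00000018735) and B2m (ENSRNOG00000017123). The names are those that came with the list. There were 4 groups of 3 rats each (Rattus norvegicus), profiled by poly(A) RNA sequencing. Stimulated PD rats had received 6-OHDA (6-hydroxydopamine, which kills dopamine neurons and serves as a model of Parkinson's disease, PD) and then wireless stimulation of 1 hour daily at 130 Hz, for 2 weeks, from a graphene array implanted at primary motor cortex. PD rats had the toxin without stimulation, stimulated control rats were stimulated without the toxin, and control rats had neither. Whether stimulated control rats had the same schedule, and whether unstimulated rats carried an array or had a sham operation, is not stated in the labels, nor are strain, sex, age and hemisphere. Lesioned rats below means stimulated PD and PD rats together, and unlesioned rats means stimulated control and control rats.

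Microglia are the resident macrophages of the brain. They depend on signalling through the receptor Csf1r, they are the main source of the complement protein C1q in brain, and in disease they can raise phagocytic and antigen presentation genes. C1q binds to debris and synapses and starts the classical complement cascade. MHC class I molecules need B2m to reach the cell surface, whereas the invariant chain Cd74 guides MHC class II molecules and is expressed strongly by macrophages and other antigen-presenting cells. In bulk tissue, fewer cells of a type and less RNA per cell cannot be told apart.

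Libraries held 42905441 to 62082830 counted reads. Values are CPM (reads per gene scaled to a common library total), and the lowest member value in any library stood for 51 reads. All 10 members passed the filter on low values, a mean of at least 0.5 CPM, together with 14985 features in all. Abundant features took a larger part of the reads of lesioned rats: the 10 most abundant features of each library took 10.6% ± 1.08 (SD, n = 6) among lesioned rats, against 8.08% ± 0.473 (SD, n = 6) among unlesioned rats. An exact permutation test, two-sided and stratified by stimulation, gave p = 0.005, its smallest possible value. Rats of a group correlated with r of 0.961 to 0.992 across features, on the log2 scale. The markers of other brain cells could not be matched to identifiers and are not analysed here, so the part of tissue makeup was not tested. Each title names a group and a rat, with 3 rats in each group. The limma p-values rest on the spread between rats, pooled over the groups and weighed with that of all features tested.

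Windows of the 250 bases before the RefSeq start come from assembly GRCr8, whereas the submitters name mRatBN7.2 for their reads. They are shown for 5 of the 8 members that matched an entry in the promoter table. These members are Cd68, Ptprc, the C1q pair and B2m. The windows of Itgam, Csf1r and Cd74 are not printed, and their matches are counted below. Sequences run from 5′ to 3′ on the strand of the gene. Capitals mark matches, on either strand, to GAGGAA (a core of the sites bound by the myeloid factor PU.1), CCAAT (the CCAAT box) and a pair of GAAA with any 2 bases between them (a core of the interferon-stimulated response element).
Cd68, chr10:54882442-54882691, minus strand: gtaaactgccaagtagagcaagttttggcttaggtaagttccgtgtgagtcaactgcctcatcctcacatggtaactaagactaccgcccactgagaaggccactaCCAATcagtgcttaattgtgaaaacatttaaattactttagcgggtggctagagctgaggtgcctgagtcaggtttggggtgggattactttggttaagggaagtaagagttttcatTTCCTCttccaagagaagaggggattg
Ptprc, chr13:52259747-52259996, minus strand: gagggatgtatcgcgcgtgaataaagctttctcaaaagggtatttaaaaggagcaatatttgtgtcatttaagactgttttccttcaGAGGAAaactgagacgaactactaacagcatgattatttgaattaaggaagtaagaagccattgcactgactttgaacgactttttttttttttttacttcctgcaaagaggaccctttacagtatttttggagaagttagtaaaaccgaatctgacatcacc
C1qb, chr5:154407828-154408077, minus strand: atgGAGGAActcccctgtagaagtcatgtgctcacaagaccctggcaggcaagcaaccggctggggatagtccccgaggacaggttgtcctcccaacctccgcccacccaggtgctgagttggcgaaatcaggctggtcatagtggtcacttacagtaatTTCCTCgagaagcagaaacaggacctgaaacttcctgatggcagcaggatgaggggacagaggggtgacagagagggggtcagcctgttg
C1qa, chr5:154419934-154420183, minus strand: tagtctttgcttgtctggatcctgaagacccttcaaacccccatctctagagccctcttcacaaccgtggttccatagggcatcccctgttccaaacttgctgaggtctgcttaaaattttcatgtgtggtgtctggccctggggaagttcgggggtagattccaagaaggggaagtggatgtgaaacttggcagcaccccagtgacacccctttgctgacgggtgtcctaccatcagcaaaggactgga
B2m, chr3:129549080-129549329, plus strand: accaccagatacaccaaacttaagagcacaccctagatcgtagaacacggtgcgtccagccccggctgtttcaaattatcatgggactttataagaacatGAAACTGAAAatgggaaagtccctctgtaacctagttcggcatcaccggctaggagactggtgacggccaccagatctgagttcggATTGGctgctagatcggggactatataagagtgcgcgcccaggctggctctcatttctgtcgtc
GAGGAA stood in the windows of 6 of the 8 matched members and in 23.3% of all 33469 promoter windows. Itgam, Cd68, C1qb, Ptprc, Csf1r and Cd74 held it, and C1qa and B2m did not. CCAAT stood in 4 of the 8 (Cd68, Csf1r, Cd74 and B2m) and in 34.0% of all windows. The paired GAAA stood in the window of B2m and in 3.41% of all windows. No match overlapped another motif. A match describes the letters of the window only. C1qb and C1qa are neighbours on the same chromosome, with C1qc between them.

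PD rats had the lowest and stimulated control rats the highest mean log2 level of the 4 groups for all 10 members. Over all features tested, PD was the lowest group in 43.7% and stimulated control the highest in 39.2%. The summed level of the 10 members was 761, 1543 and 356 CPM in stimulated PD rats 1, 2 and 3, and 291, 464 and 404 CPM in PD rats. It was 1193, 587 and 1255 CPM in stimulated control rats, and 779, 711 and 560.1 CPM in control rats. Every PD rat lay below every control rat, whereas the stimulated PD rats spanned both.

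**Figure D1:**
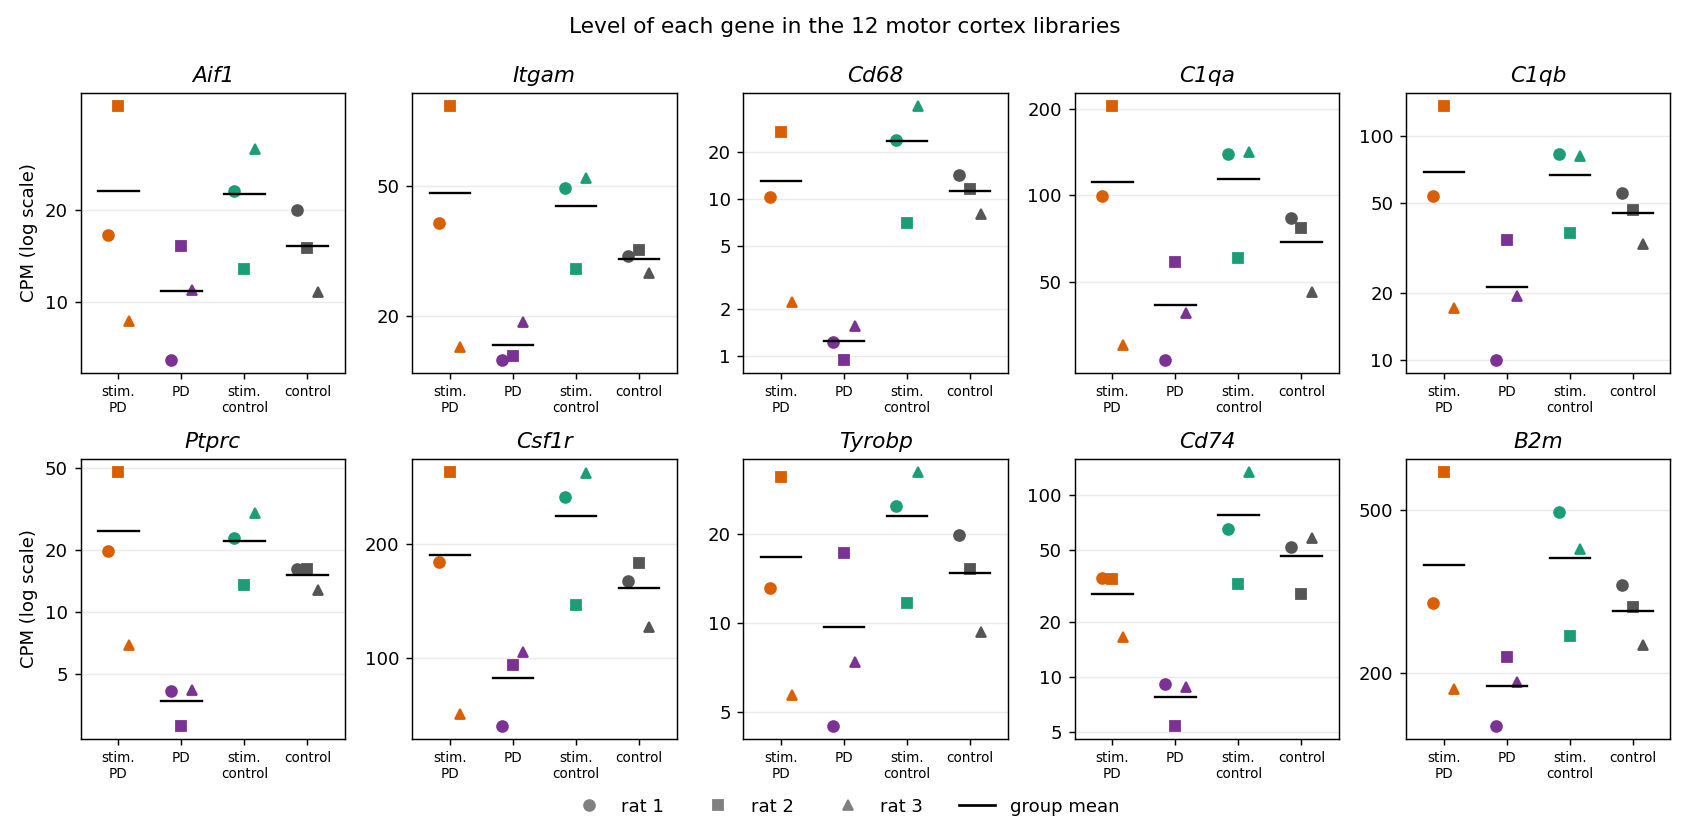
CPM of each of the 10 genes (log axis, a separate scale for each gene) in stimulated PD, PD, stimulated control and control rats; symbols are rats 1 to 3 and black lines are group means. The 3 PD rats lie below the 3 control rats for 6 genes (23.3% of all features tested). Stimulated PD rat 2 is the highest of the 12 libraries for 7 genes, a rank for which the share of all features was not computed.

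PD rats were set against control rats to see the model in cortex that was not stimulated. All 10 members had a negative estimate in PD rats, as did 64.9% of all features tested. Cd74 fell 5.54-fold and was the 1 member called lower by limma (adjusted p under 0.05), where 4.10% of all features were called lower. No member was called higher, against 0.280% of all features. Lower calls made up 93.6% of all calls, but 68.6% with TMM and 76.9% with median-of-ratios factors, while Cd74 was called lower with both. For 6 of the 10 members (Itgam, Cd68, Ptprc, Csf1r, Cd74 and B2m) every PD rat was below every control rat, which was so for 23.3% of all features. The median log2 fold change was -0.82 over the members and -0.11 over all features tested.

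Cd74, the invariant chain of MHC class II, stood at 9.14, 5.38 and 8.86 CPM in PD rats 1, 2 and 3, against 51.7, 28.8 and 58.6 CPM in control rats. Its mean was 7.79 ± 2.09 CPM in PD rats and 46.3 ± 15.6 CPM in control rats (SD, n = 3 each), and the highest PD rat was far under the lowest control rat. The log2 fold change was -2.47 (SE 0.46; 95% confidence interval -3.48 to -1.46; limma adjusted p = 0.0223), with 3 of 3 PD rats lower than all control rats. Its call held in 18 of 22 alternatives and was lost without any 1 control rat or without PD rat 2, with adjusted p-values over the alternatives from 1.69e-06 to 0.116. In the fits that lost it, 0.0267% to 1.67% of all features were called.

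The largest estimate among the members was that of Cd68, a lysosomal glycoprotein of phagocytes. It stood at 1.23, 0.944 and 1.55 CPM in PD rats, against 14.2, 11.5 and 8.03 CPM in control rats. The groups were wide apart, and the log2 fold change was -2.74 (SE 0.72; limma adjusted p = 0.0540), so it missed the threshold. The PD values of Cd68 lay near the 0.5 CPM added before the log. With 0.1 CPM added instead its estimate was -3.07, and with 2 CPM it was -2.01, where that of Cd74 was -2.27. Ptprc, the leukocyte phosphatase CD45, stood at 4.13, 2.79 and 4.16 CPM in PD rats, against 16.2, 16.1 and 12.8 CPM in control rats. Here too no rats overlapped, with a log2 fold change of -1.90 (SE 0.52; limma adjusted p = 0.0579). Cd68 and Ptprc passed the test in 6 and 4 of 22 alternatives. Both passed with DESeq2 (13.6% of all features called) and with only the compared groups fitted (4.12%). They also passed without stimulated PD rat 2 (5.52%) or 3 (6.26%), which enter this comparison through the estimate of spread alone. Among all features tested, 0.200% had an estimate as low as that of Cd68, 0.340% as low as that of Cd74 and 1.05% as low as that of Ptprc.

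The other members showed smaller differences. Itgam, the integrin chain CD11b of complement receptor 3, stood at 14.7, 15.1 and 19.2 CPM in PD rats, against 30.5, 31.9 and 27.1 CPM in control rats. The groups did not overlap (log2 fold change -0.86, SE 0.45, limma adjusted p = 0.271). Csf1r, the receptor on which microglia depend for survival, stood at 66.1, 95.8 and 104 CPM in PD rats, against 159.8, 179 and 120.5 CPM in control rats. The highest PD rat was again below the lowest control rat (log2 fold change -0.79, SE 0.45, limma adjusted p = 0.302). B2m, the light chain of MHC class I, stood at 148, 219 and 189.6 CPM in PD rats, against 328, 291 and 234 CPM in control rats (limma adjusted p = 0.336; log2 fold change -0.62, SE 0.38). Its groups did not overlap either, by a narrow margin.

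In the complement pair and in Aif1 and Tyrobp, PD rat 2 reached the level of control rats. C1qa, the A chain of C1q, stood at 26.7, 58.6 and 38.9 CPM in PD rats, against 83.0, 76.6 and 46.2 CPM in control rats. C1qb, the B chain, stood at 10.05, 34.5 and 19.4 CPM in PD rats, against 55.8, 46.7 and 32.8 CPM in control rats. For both chains PD rat 2 lay above control rat 3, and the log2 fold changes were -0.75 (SE 0.58, limma adjusted p = 0.458) and -1.20 (SE 0.63, limma adjusted p = 0.273). Aif1, the calcium-binding protein Iba1 by which microglia are commonly stained, stood at 6.47, 15.3 and 10.9 CPM in PD rats, against 19.997, 15.0 and 10.7 CPM in control rats (log2 fold change -0.50, SE 0.51, limma adjusted p = 0.590). Tyrobp, the adaptor DAP12 of Trem2 and other myeloid receptors, stood at 4.47, 17.2 and 7.38 CPM in PD rats, against 19.8, 15.2 and 9.26 CPM in control rats (log2 fold change -0.72, SE 0.60, limma adjusted p = 0.494). The 95% confidence interval for Aif1 ran from -1.62 to 0.62, which spans both directions.

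**Figure D2:**
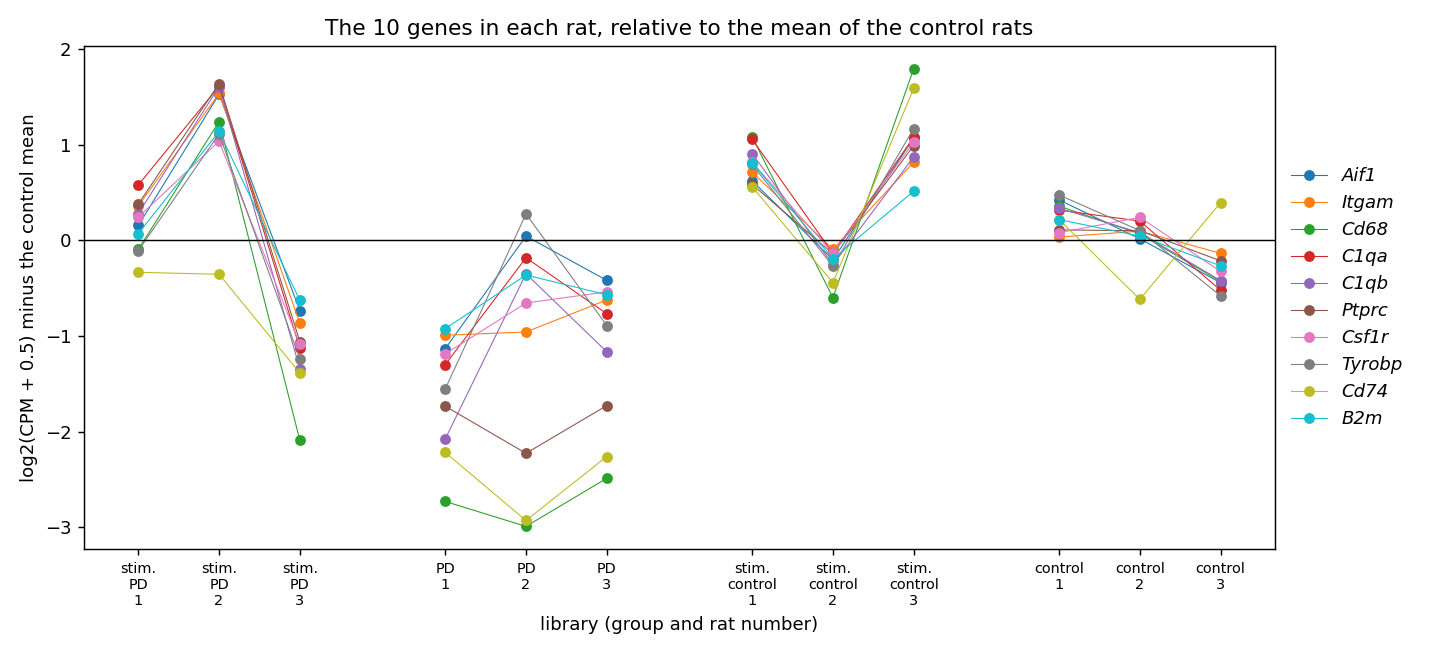
log2(CPM + 0.5) of each gene in each of the 12 libraries, minus the mean of the control rats (line at 0); thin lines join the values of one gene within a group and imply no order of rats. In stimulated PD rat 2, 9 of 10 genes lie above 0 and Cd74 lies below it; the values are widest apart in PD rat 2, where Cd68, Cd74 and Ptprc are lowest and Aif1 and Tyrobp lie above 0.

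Ratios of members within a library are given as a description and follow from the levels above. Cd68 over Aif1, for example, sets the member with the lowest log2 fold change in PD against control rats (-2.74) over that with the highest (-0.50). The ratio of Cd68 to Aif1 was 0.190, 0.0618 and 0.141 in PD rats, against 0.712, 0.772 and 0.748 in control rats. Stimulated PD rats had ratios of 0.621, 0.612 and 0.253, against 1.04, 0.555 and 1.25 in stimulated control rats. The ratio was thus low in all 3 PD rats and in stimulated PD rat 3. Ptprc to Aif1 gave 0.639, 0.183 and 0.380 in PD rats, against 0.808, 1.07 and 1.19 in control rats, with no overlap, and 1.18, 1.09 and 0.797 in stimulated PD rats, against 0.984, 1.06 and 0.955 in stimulated control rats. Of the antigen presentation pair, Cd74 to B2m gave 0.0617, 0.0246 and 0.0467 in PD rats, against 0.158, 0.0990 and 0.250 in control rats. In stimulated PD rats it gave 0.119, 0.0557 and 0.0915, below the 0.133, 0.132 and 0.335 of stimulated control rats, so lesioned and unlesioned rats did not overlap within either pair of groups. The chains of C1q stayed closer: C1qa to C1qb gave 2.66, 1.70 and 2.01 in PD rats, against 1.49, 1.64 and 1.41 in control rats, and 1.86, 1.51 and 1.77 in stimulated PD rats, against 1.67, 1.64 and 1.74 in stimulated control rats. Even so, every PD rat had a higher ratio than every control rat. For other pairs PD and control rats overlapped: Itgam to Aif1 gave 2.28, 0.988 and 1.75 in PD rats, against 1.53, 2.13 and 2.52 in control rats. Tyrobp to Aif1 gave 0.692, 1.13 and 0.675 in PD rats, against 0.991, 1.02 and 0.862 in control rats. The 6 pairs were chosen with earlier results of these data known, and the ratios were not tested or set beside those of other features.

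**Figure D3:**
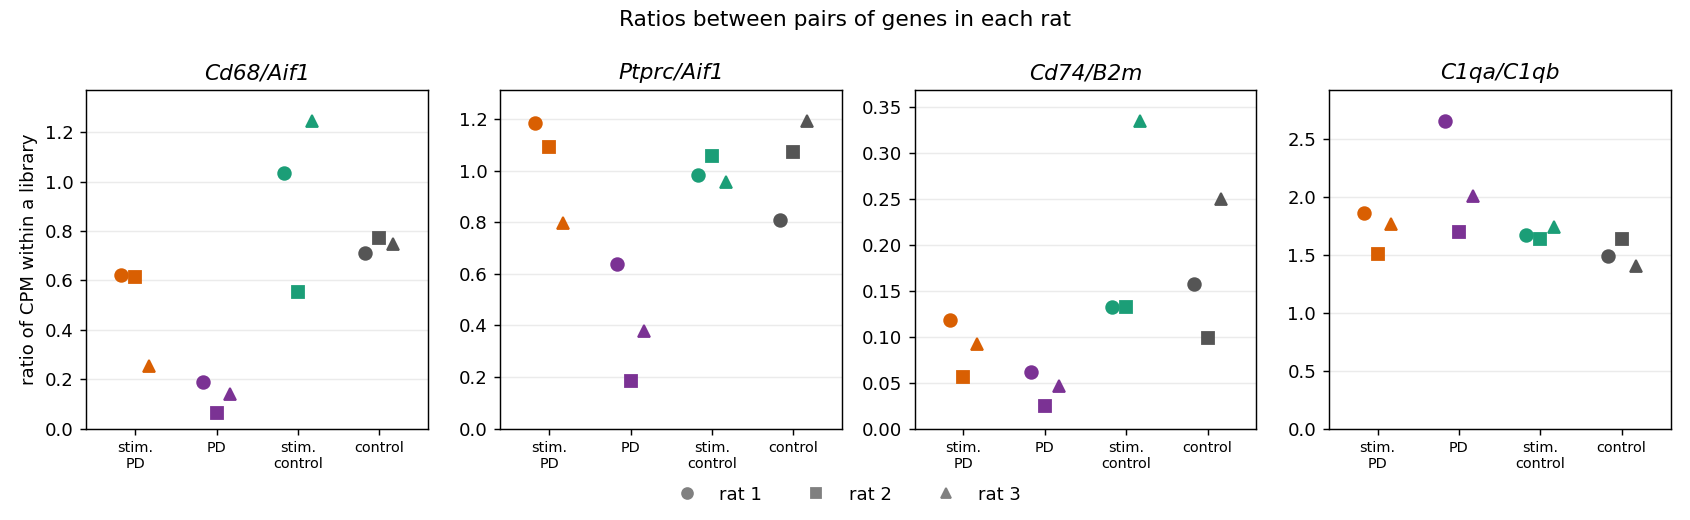
Ratio of the CPM of one gene to that of another within each library, for 4 pairs of genes; symbols are rats 1 to 3 and each axis starts at 0. Cd68/Aif1 lies at 0.190 or less in PD rats and at 0.712 or more in control rats, whereas C1qa/C1qb lies between 1.41 and 2.66 in every library. PD and control rats do not overlap in the 4 pairs shown, and overlap in the pairs left out, Itgam/Aif1 and Tyrobp/Aif1.

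Among stimulated rats the lesion was measured again in other animals. All 10 members had a negative estimate in stimulated PD against stimulated control rats, as did 63.7% of all features, but the direction turned for 6 of them with edgeR and DESeq2 and for 7 without stimulated PD rat 3. By limma 0 of the 10 members were called, where 1.45% of all features were, and lower calls were 69.6% of those, but 31.2% with TMM and 57.1% with median-of-ratios factors. There was 1 member, Cd74, with an unadjusted p under 0.05, against 18.4% of all features lower at that level. edgeR called 0 members, and DESeq2 called Cd74 and 13.5% of all features, so that 1 of 10 members was below the share over all features. Cd74 stood at 35.1, 34.6 and 16.7 CPM in stimulated PD rats, against 65.7, 32.5 and 135 CPM in stimulated control rats (log2 difference -1.26, SE 0.46, limma adjusted p = 0.118). Stimulated control rat 2 was the one that overlapped the stimulated PD rats, and without it Cd74 was called, as were 5.84% of all features. Cd68 stood at 10.3, 26.7 and 2.19 CPM in stimulated PD rats, against 23.8, 7.09 and 39.4 CPM in stimulated control rats (log2 difference -1.07, SE 0.72, limma adjusted p = 0.365). The rats overlapped widely. The other log2 differences were -0.18 for Aif1, -0.14 for Itgam, -0.31 for C1qa, -0.33 for C1qb, -0.16 for Ptprc, -0.51 for Csf1r, -0.64 for Tyrobp and -0.18 for B2m (SE 0.38 to 0.63). No member separated these groups, whereas 27.1% of all features were lower in every stimulated PD rat than in every stimulated control rat.

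With both pairs of groups combined, Cd74 and Cd68 fell in lesioned rats: 2 of 10 members were called lower by limma, a share close to the 18.0% of all features called lower. All 10 estimates were negative, as for 66.1% of all features, and no member was without overlap, against 6.88% of all features lower. The log2 difference of lesioned from unlesioned rats was -1.87 for Cd74 (SE 0.33; limma adjusted p = 0.00574) and -1.91 for Cd68 (SE 0.51; limma adjusted p = 0.0223). Ptprc followed with -1.03 (SE 0.36; limma adjusted p = 0.0612). The remaining members did not pass the test, with log2 differences of -0.34 for Aif1, -0.50 for Itgam, -0.53 for C1qa, -0.76 for C1qb, -0.65 for Csf1r, -0.68 for Tyrobp and -0.40 for B2m. Cd74 kept its call in 21 of 21 alternatives, and Cd68 in 19, losing it without control rat 1 or stimulated control rat 3. Both stayed lower with TMM and with median-of-ratios factors, which moved the median of all features by 0.14 and 0.13 on the log2 scale and gave 45.9% and 50.5% of all calls as lower, against 78.3% without them. Without stimulated PD rat 2, 6 members were called lower (Itgam, Cd68, Ptprc, Csf1r, Cd74 and B2m), against 21.7% of all features called in either direction.

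Stimulated PD rats were set against PD rats to see the levels that go with stimulation after the lesion. All 10 members had a positive estimate, from 0.65 for Tyrobp to 2.42 for Cd68 on the log2 scale, as did 59.7% of all features; the median was 1.15 over the members and 0.08 over all features. By limma 0 of the 10 were called, as for all features (0.00%). Itgam, Cd68, Ptprc and Cd74 had an unadjusted p under 0.05, where 11.7% of all features were higher at that level. edgeR called 0 members, and DESeq2 called those 4 and 6.05% of all features. Cd68, Ptprc and Cd74 were higher in every stimulated PD rat than in every PD rat, which was so for 9.98% of all features.

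Ptprc stood at 19.6, 47.6 and 6.91 CPM in stimulated PD rats, against 4.13, 2.79 and 4.16 CPM in PD rats. Stimulated PD rat 3 was closest to the PD rats (log2 difference 2.22, SE 0.52, limma adjusted p = 0.179). Cd68, with the stimulated PD values given above against 1.23, 0.944 and 1.55 CPM in PD rats, differed by 2.42 (SE 0.72, limma adjusted p = 0.216), and Cd74 by 1.78 (SE 0.46, limma adjusted p = 0.189). For the C1q chains the estimate was 1.11 (SE 0.58, limma adjusted p = 0.315) for C1qa and 1.38 (SE 0.63, limma adjusted p = 0.288) for C1qb. C1qa stood at 99.8, 205 and 30.2 CPM in stimulated PD rats, against 26.7, 58.6 and 38.9 CPM in PD rats, so stimulated PD rat 3 lay inside the range of the PD rats. Estimates were 0.82 for Aif1, 1.20 for Itgam, 0.86 for Csf1r, 0.65 for Tyrobp and 0.81 for B2m (SE 0.38 to 0.60; limma adjusted p-values 0.258 to 0.529). These estimates moved with single rats. Without stimulated PD rat 3, Itgam, Cd68 and Ptprc were called higher, with limma adjusted p-values of 0.0267, 0.0233 and 0.0152, where 2.18% of all features were called. Without stimulated PD rat 2, no member was called and the estimates ran from 0.05 for Tyrobp to 1.65 for Cd68. Without PD rat 1, Ptprc and Cd74 were called, where 19.6% of all features were.

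**Figure D4:**
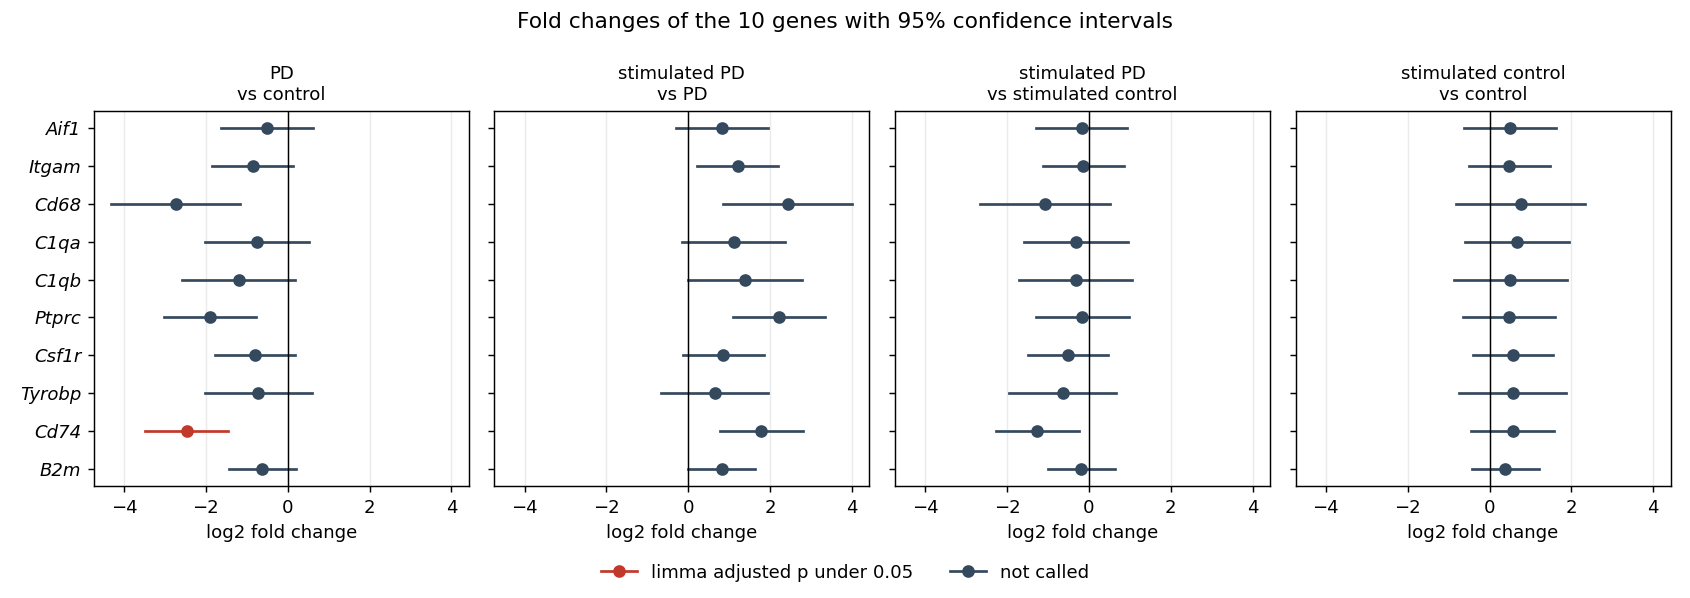
log2 fold change (points) with 95% confidence interval (lines) of each gene in 4 comparisons, from limma on log2(CPM + 0.5); red marks an adjusted p under 0.05. All estimates are negative in PD against control and positive in stimulated PD against PD, and Cd74 in PD against control is the 1 value that passed the test.

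Stimulated control rats were set against control rats in the same way, without the lesion. All 10 members had a positive estimate, from 0.38 for B2m to 0.76 for Cd68, as did 59.0% of all features, with a median of 0.54 over the members and 0.03 over all features. By limma 0 members were called and 0 had an unadjusted p under 0.05, where 1.17% of all features were higher at that level, and edgeR and DESeq2 also called 0. Ranges overlapped for all 10, where 5.49% of all features were higher without overlap. Csf1r, for example, stood at 267, 138 and 309 CPM in stimulated control rats, against 159.8, 179 and 120.5 CPM in control rats (log2 difference 0.57, SE 0.45, limma adjusted p = 1.00). The log2 differences of the others were 0.50 for Aif1, 0.48 for Itgam, 0.67 for C1qa, 0.51 for C1qb, 0.48 for Ptprc, 0.57 for Tyrobp and 0.57 for Cd74. Stimulated control rats 1 and 3 were above all control rats for every member, and stimulated control rat 2 was below the highest control rat for every member. The share of all features with these positions was not computed, so they describe the members only. Over all features, stimulated control rat 3 was the highest of its group in 49.6% and rat 2 the lowest in 45.9%.

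The interaction, the stimulated-minus-unstimulated difference in PD rats minus that in control rats, had a positive estimate for all 10 members and for 55.1% of all features; without stimulated PD rat 2 it was negative for 5 members. It was called for 0 members by limma, edgeR and DESeq2, and by limma for 0.00% of all features. The largest interaction was that of Ptprc (log2 difference 1.74, SE 0.73, unadjusted p = 0.0349, limma adjusted p = 0.834), the 1 member with an unadjusted p under 0.05, where 2.90% of all features were higher at that level. The other values were 0.32 for Aif1, 0.72 for Itgam, 1.66 for Cd68, 0.44 for C1qa, 0.87 for C1qb, 0.29 for Csf1r, 0.08 for Tyrobp, 1.21 for Cd74 and 0.43 for B2m (SE 0.53 to 1.02). For all 6 stimulated against all 6 unstimulated rats, with equal weight for both pairs of groups, the estimates were positive for all 10 members and for 61.3% of all features. The unadjusted p was under 0.05 for 6 members, all higher, against 10.1% of all features. By limma 0 members (0.00% of all features) and by edgeR 0 members were called, and DESeq2 called Itgam, Cd68, Ptprc and Cd74 and 1.93% of all features. The log2 differences were 0.66 for Aif1, 0.84 for Itgam, 1.59 for Cd68, 0.89 for C1qa, 0.95 for C1qb, 1.35 for Ptprc, 0.71 for Csf1r, 0.61 for Tyrobp, 1.17 for Cd74 and 0.60 for B2m. Against control rats, stimulated PD rats had a positive estimate for 7 members, against 39.7% of all features, and a negative one for Cd68, Tyrobp and Cd74; for Cd68 and Tyrobp the sign turned with edgeR and DESeq2, and for Tyrobp also with TMM factors. All 10 overlapped, where 25.9% of all features were lower and 15.4% higher without overlap. limma, edgeR and DESeq2 called 0 members, limma called 0.0334% of all features, and 0 members had an unadjusted p under 0.05, against 20.9% of all features. Cd74 was the farthest from control, with a log2 difference of -0.69 (SE 0.46, limma adjusted p = 0.402). The others lay at 0.32 for Aif1, 0.34 for Itgam, -0.31 for Cd68, 0.36 for C1qa, 0.18 for C1qb, 0.32 for Ptprc, 0.07 for Csf1r, -0.08 for Tyrobp and 0.20 for B2m. These comparisons share libraries with those above.

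The members varied more between rats of a group than most features in 3 of the 4 groups, and less distinctly so in PD rats. In stimulated PD rats the SD of log2(CPM + 0.5) over the 3 rats had a median of 1.19 over the members and 0.14 over all features, and 0.954% of all features reached the members' median. The median was 0.65 over the members and 0.16 over all features in stimulated control rats, where 3.32% of all features reached the members' median. In control rats it was 0.39 over the members and 0.13 over all features, and 6.59% reached the members' median. There 9 of 10 members were above the median of all features (0.126), and Itgam was below it (0.120). In PD rats, where features in general varied more, the median was 0.37 over the members and 0.29 over all features. Of all features 33.7% reached the members' median, and 7 of 10 members were above that of all features. Cd68 spanned 2.19 to 26.7 CPM in stimulated PD rats, a 12.2-fold range, and Cd74 had the smallest range there, 2.11-fold.

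**Figure D5:**
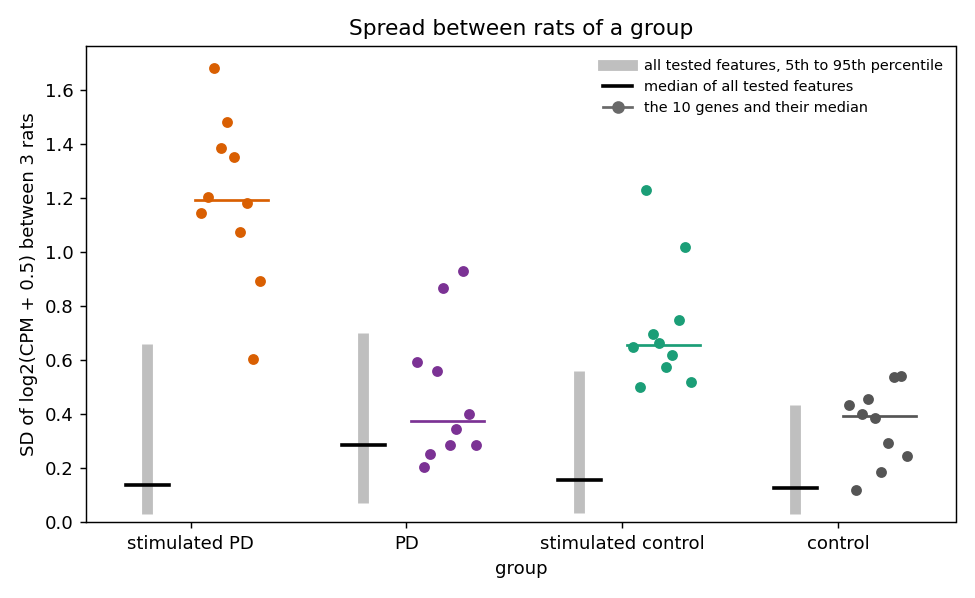
SD of log2(CPM + 0.5) between the 3 rats of each group. Grey bars span the 5th to 95th percentile of the 14985 features tested, with their median in black; points are the 10 genes and coloured lines their medians. All 10 points of stimulated PD and of stimulated control rats lie above the median of all features.

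Outside the PD group, the same rats were high or low for nearly every member. Within the PD group the order differed between members. PD rat 2 was highest for 5 members and lowest for 3, against 34.5% and 46.3% of all features. Stimulated PD rats stood in the order rat 2, rat 1, rat 3 for 9 members, and Cd74 was the exception, with rat 1 first; 33.4% of all features had that order. Stimulated PD rat 3 was lowest of its group for all 10, against 53.7% of all features. In stimulated control rats, rat 2 was lowest for all 10, against 45.9% of all features, and in control rats, rat 3 was lowest for 9, against 39.1%. Stimulated PD rat 2 was the highest of the 12 libraries for 7 members. Stimulated PD rat 3 ranked among the 4 lowest for all 10 members, as did PD rats 1 and 3. PD rat 2 ranked there for 6 members. Shares of all features with these ranks over the 12 libraries were not computed, so the ranks describe the members only. Stimulated PD rat 3 also had the largest share of reads in its 10 most abundant features, 12.3%, and the part of library composition in its low values was not tested. Each member correlated with the mean of the other 9 members over the 12 libraries, with Pearson's r from 0.75 for Cd74 to 0.98 for Csf1r, as a description of rats that share groups and libraries. The 5 features most like the mean of the members had r of 0.988 to 0.990 over the 12 libraries; the closest were ENSRNOG00000017854 and ENSRNOG00000008759, which the tables used here do not pair with names.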

How the data were processed

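Poly(A) RNA of 12 motor cortex samples was made into libraries with a stranded kit, per the labels' protocols. Per the submitters' processing notes, Trim Galore, STAR and featureCounts were used with mRatBN7.2; their versions and the strand setting of the counting are not given here. The authors deposited 1 table of CPM with 16534 Ensembl identifiers. All 12 columns were matched by short description; rats are numbered by title. Each value was a whole multiple of a step, which gave back whole reads for 100% of values within a tolerance of 0.001 read and library totals of 42905441 to 62082830 reads.

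limma 3.58.1 (R 4.3.3) was fitted to log2(CPM + 0.5) of the 14985 features averaging 0.5 CPM or more, with 1 coefficient per group, all 12 libraries and a trended prior variance. Two-sided p-values were corrected by the Benjamini-Hochberg method over all tested features in each of 8 comparisons. Called means an adjusted p under 0.05. The script was tested on simulated data.

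Alternatives were pseudocounts of 0.1 and 2 CPM, no filter, TMM and median-of-ratios factors, no variance trend, only the compared groups fitted, the title's rat number as a block, each library left out, and edgeR 4.0.16 and DESeq2 1.42.0 on the recovered reads. In PD against control rats edgeR called 475 features and limma 657. The members, lists and tests were chosen with earlier results of these data known. The rule for named genes was all 10 members in every comparison, and the 5 features most like their mean, of which 2 are named. Gene names came with the list of identifiers: no table used here pairs Ensembl rat identifiers with symbols, so they were not checked, and the other lists drawn up for this work (homeostatic and activated microglia, complement, MHC, interferon, leukocytes and other brain cells) were not analysed here.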

Additional observations from a re-analysis of the deposited data

How the results depend on the processing

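Of the alternatives run, none turned the sign of any member in PD against control, lesioned against unlesioned, stimulated PD against PD, stimulated control against control or stimulated against unstimulated rats. The number of members called moved more. In PD against control rats it was 1, with 657 of the 14985 features tested called. It became 2 with a pseudocount of 0.1 CPM (4.88% of all features called) and 3 with DESeq2 (13.6%). With only the compared groups fitted it became 4 (4.12%). In stimulated PD against PD rats it was 0 (0.00%), and 4 with DESeq2 (6.05%). In stimulated PD against stimulated control rats it was 0 (1.45%), and 1 with DESeq2 (13.5%). In stimulated against unstimulated rats it was 0 (0.00%), and 4 with DESeq2 (1.93%). With 1 library left out, the number ranged from 0 to 3 in PD against control rats. It was 0 without PD rat 2 or any 1 control rat, where 0.0267% to 1.67% of all features were called. Without stimulated PD rat 2 or 3 it was 3 (5.52% and 6.26%). In stimulated PD against PD rats it ranged from 0 to 3, being 3 without stimulated PD rat 3 (2.18%). In stimulated PD against stimulated control rats it ranged from 0 to 1, being 1 without stimulated control rat 2 (5.84%). In lesioned against unlesioned rats it ranged from 1 to 6. It was 1 without stimulated control rat 3 or control rat 1 (12.6% and 13%), and 6 without stimulated PD rat 2 (21.7%). The causes of these shifts were not tested.

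Leaving out 1 library turned the sign of several small differences, most often stimulated PD rat 2 or 3. Without rat 2 and without rat 3, the lowest and highest values over the libraries left out, the log2 difference of stimulated PD from stimulated control rats was -0.79 and 0.35 for Aif1, -0.73 and 0.47 for Itgam, -0.94 and 0.43 for C1qa, -1.04 and 0.44 for C1qb, -0.82 and 0.53 for Ptprc, -0.99 and 0.070 for Csf1r, -0.66 and 0.23 for B2m. From control rats it was -0.29 and 0.84 for Aif1, -0.25 and 0.95 for Itgam, -1.09 and 0.58 for Cd68, -0.27 and 1.098 for C1qa, -0.53 and 0.95 for C1qb, -0.34 and 1.01 for Ptprc, -0.42 and 0.64 for Csf1r, -0.67 and 0.51 for Tyrobp, -0.28 and 0.61 for B2m. The interaction was -0.29 and 0.85 for Aif1, -0.19 and 1.18 for C1qa, -0.20 and 0.86 for Csf1r, -0.52 and 0.66 for Tyrobp, -0.039 and 0.84 for B2m. Other libraries turned signs too. In stimulated PD against stimulated control rats, 9 members were negative without stimulated control rat 1 and 7 without stimulated control rat 3, against 10 with all libraries. In stimulated PD against control rats, 4 were negative without stimulated PD rat 1, 2 without control rat 1 and 5 without control rat 3, against 3 with all libraries. The interaction was negative for 3 members without stimulated control rat 2, and for 1 without PD rat 1, PD rat 3 or control rat 1, against 0 with all libraries. On recovered reads, stimulated PD minus stimulated control rats turned positive with edgeR, at 0.12 for Aif1, 0.21 for Itgam, 0.057 for C1qa, 0.12 for C1qb, 0.25 for Ptprc and 0.031 for B2m. With DESeq2 the values were 0.11 for Aif1, 0.20 for Itgam, 0.050 for C1qa, 0.11 for C1qb, 0.24 for Ptprc and 0.023 for B2m. Stimulated PD minus control rats turned positive for Cd68, at 0.25 with edgeR and 0.25 with DESeq2, and for Tyrobp, at 0.22 with edgeR, 0.22 with DESeq2 and 0.0049 with TMM factors.

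Rat numbers were shared by the titles of all groups. Of 18 same-numbered pairs, 3 deviated together with r over 0.1, and 2 of 12 libraries correlated best with their own number. With 3 rats a group, these correlations cannot decide whether rats of a number share a batch. The submitters' short descriptions number the PD rats and stimulated PD rat 3 otherwise, and that numbering was not used. With the rat number as a replicate block, 1 member was called in PD against control rats and 2 in lesioned against unlesioned rats, as without it. Over all features the block gave 282 calls, against 657 without it, in PD against control rats, and 2, against 217, in stimulated PD against stimulated control rats. In lesioned against unlesioned rats the block gave 2707 calls, against 3451. Calls over all features ranged from 4 to 2037 over the alternatives in PD against control rats, from 0 to 2943 in stimulated PD against PD rats, from 2 to 2256 in stimulated PD against stimulated control rats, from 2 to 2861 in stimulated PD against control rats and from 1881 to 4608 in lesioned against unlesioned rats. TMM and median-of-ratios factors moved the median of all features in PD against control rats by 0.16 and 0.15 on the log2 scale. Each group held 3 rats, and the lowest member value in a library rested on 51 reads; which of these limits the comparisons was not tested.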
